A study of Danio rerio with 4 samples.

Results

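The S100 family was examined in hematopoietic stem and progenitor cells (HSPCs) of adult zebrafish. Its members were taken by name from the table of read counts, as every gene whose symbol begins with s100 plus icn and icn2 (ictacalcin genes, which are S100 genes under another name). The rule found 13 genes of 32434 in the table. The 4 libraries were 2 from fish homozygous for a tet2 mutation (tet2 m/m) and 2 from wild-type fish (tet2 wt/wt). The mutant line carries a small deletion made with zinc finger nucleases, present in every cell of the fish, that truncates Tet2, an enzyme that oxidizes 5-methylcytosine. The cells were sorted from the kidney marrow, the site of adult blood formation in fish, by high light scatter, with no surface marker or reporter named. For all 4 libraries the age is 4 months by the titles and 15 months by the descriptions, and the paper compares the genotypes at the younger of these ages. The labels do not say what the replicates were. The paper calls them pools where it describes DNA methylation, and RNA came from part of the sorted cells. The p-values rest on the spread between these libraries left after the replicate number, estimated with information shared across genes. They do not measure the spread of each gene alone, and the spread may in part be technical.

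S100 proteins are small calcium-binding proteins of vertebrates that usually work as dimers. Each subunit carries a pair of EF-hands, helix-loop-helix motifs that hold calcium, and binding of calcium exposes a surface that grips target proteins, many of them annexins. S100A10, also called p11, is the exception in mammals. It has lost the ability to bind calcium, stays in its active shape and joins annexin A2 in a complex at the cell membrane that binds plasminogen and helps place ion channels. The zebrafish has a pair of genes named for S100A10, s100a10a and s100a10b. In mammals other S100 proteins are abundant in neutrophils and monocytes.

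The libraries held 8838603 to 10710913 reads. Levels are given as CPM, read counts scaled to a common library size and composition, and are not divided by transcript length, so they compare libraries and not genes. Where a library had 0 reads of a gene, its level could still reach 0.271 to 0.396 CPM by library (3 reads), a limit that covers counting error only. All 16 stem and progenitor markers found by symbol had more than 5 reads over the 4 libraries, the limit for testing, and 3 had under 60. Those 3 were gfi1aa, mecom and runx1, the last with 16 and 7 reads in tet2 m/m, against 16 and 8 in tet2 wt/wt. The blood transcription factor genes tal1 and spi1 were among the markers with more reads. The 16 had a summed level of 1233 to 1427 CPM in tet2 m/m and 1314 to 1484 CPM in tet2 wt/wt libraries, and 1 of them was called, lower. Most of this sum came from cebpa, spi1, egr1 and tal1. Markers of other cells were also present. Erythroid markers summed to 27775 to 40549 CPM in tet2 m/m and 64568 to 103874 CPM in tet2 wt/wt libraries, and B cell markers to 228 to 304 CPM in tet2 m/m and 461 to 499 CPM in tet2 wt/wt libraries. Most of the erythroid sum came from the globin genes hbaa1 and ba1, neither of which was called. In such bulk samples fewer cells of a type and less RNA per cell cannot be told apart.

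The comparison of tet2 m/m with tet2 wt/wt HSPCs asked which S100 transcripts differ when Tet2 is truncated. The pair of S100A10 genes moved in opposite directions: s100a10a was 10.05-fold lower in tet2 m/m HSPCs and s100a10b was 2.03-fold higher. The transcript of icn, of which many reads were found in all 4 libraries, was not called. The remaining 10 members had few reads in every library. Of the 13 members, 8 had more than 5 reads over the 4 libraries and were tested, 1 was called higher and 1 lower. Calls required an adjusted p under 0.05 (Benjamini-Hochberg over all 17242 genes tested) together with an absolute log2 fold change above 1. By this rule edgeR called 3.71% of all genes tested, 1.8% higher and 1.9% lower. Without the replicate block edgeR called 1 member and 1.5% of all genes, and DESeq2 called 2 members and 1.29% of all genes.

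**Figure D1:**
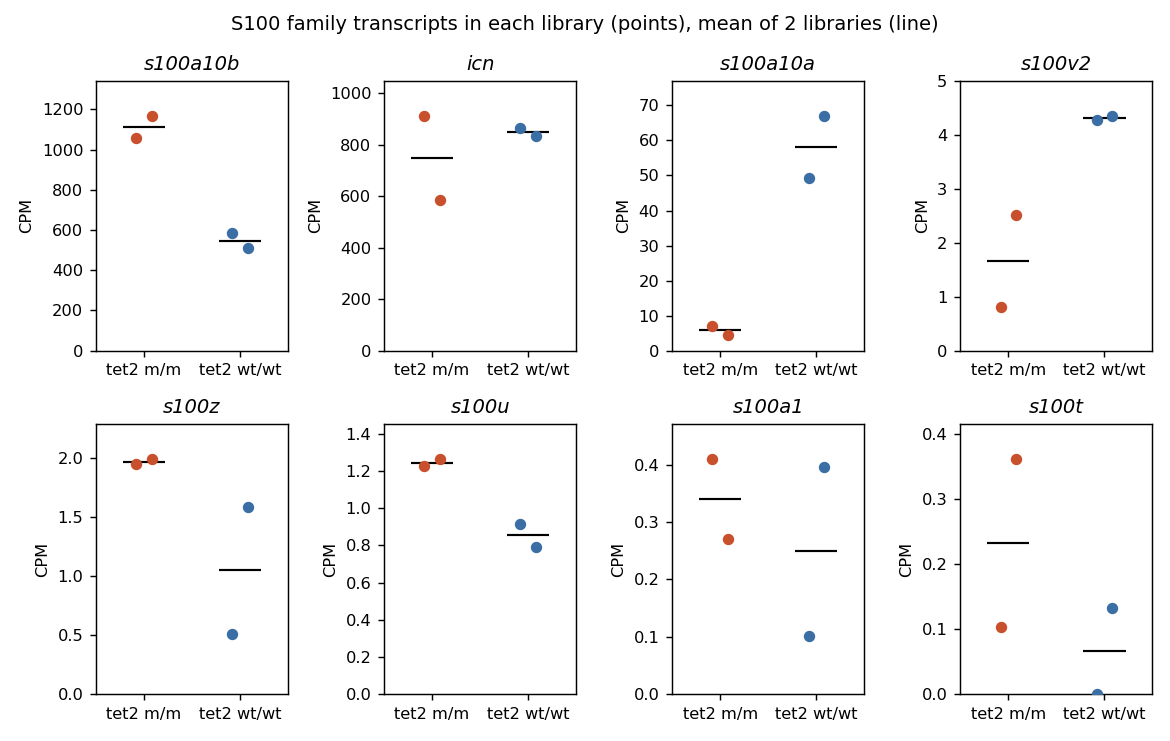
Level of the 8 tested S100 members in CPM (y axis, linear, a scale of its own in each panel) in tet2 m/m and tet2 wt/wt HSPCs, with a point for each library and a line at the mean of 2 libraries. The points of s100a10a lie at 7.06 and 4.51 CPM in tet2 m/m, below 49.3 and 66.9 CPM in tet2 wt/wt, while those of s100a10b lie at 1060 and 1166 CPM in tet2 m/m, above 587 and 508 CPM in tet2 wt/wt.

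The largest difference among the tested members was in s100a10a (ENSDARG00000037425). It had 69 and 50 reads in tet2 m/m replicates 1 and 2, against 484 and 507 reads in tet2 wt/wt replicates 1 and 2. In scaled units these were 7.06 and 4.51 CPM in tet2 m/m, against 49.3 and 66.9 CPM in tet2 wt/wt. Both mutant libraries were low and both wild-type libraries high, and the groups were far apart relative to the gap within either genotype. With a log2 fold change of -3.33 ± 0.25 (SE), the transcript fell in tet2 m/m HSPCs by edgeR's quasi-likelihood test (adjusted p = 4.94e-11). Among the 328 genes called lower, s100a10a was number 6 by p-value and number 58 by the size of its fold change. It was also called under each of the 12 other settings tried, with log2 fold changes of -3.68 to -3.04 and adjusted p of 1.51e-38 to 0.00581. These settings include DESeq2 (adjusted p = 1.33e-15), edgeR without the replicate block (adjusted p = 1.42e-04) and each library left out in turn.

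Markers of B cells fell in the same libraries. Of 11 tested B cell markers 9 were called lower and 0 higher, where 1.9% of all genes tested were called lower and 1.8% higher. Their median on the log2 scale was -1.63, set against -0.01 over all genes tested. At an unadjusted edgeR p under 0.05 there were 10 lower and 0 higher, and DESeq2 called 5 lower and 0 higher. Among those called were ighz, an immunoglobulin heavy chain gene of fish (log2 fold change -3.22, edgeR adjusted p = 5.95e-08), pax5, the transcription factor that commits cells to the B lineage (-2.40, edgeR adjusted p = 5.55e-07), and CD79B and CD37, proteins of the B cell surface (-1.81 and -1.64). Of the 11 tested B cell markers 10 had both tet2 m/m libraries below both tet2 wt/wt libraries. So had s100a10a and 21.7% of all genes tested. Erythroid markers were lower as well, with 7 of 14 lower and 0 higher at an unadjusted edgeR p under 0.05. The part of B cells or erythroid cells in the s100a10a result was not tested.

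The genes nearest to s100a10a across the 4 libraries were found by the root mean square distance between centred log2 levels, among 7621 genes with a mean of at least 10 CPM. The nearest was MFAP4 (13 of 13), a copy of a gene that marks macrophages in zebrafish, at a distance of 0.42. It had 6.75 and 8.85 CPM in tet2 m/m, against 78.4 and 66.6 CPM in tet2 wt/wt. Macrophage markers, which include other copies of mfap4, went both ways, with 3 of 23 tested called higher and 5 lower (DESeq2 2 and 2). The next nearest gene was CR936442.1, a gene with no current name in the list used, at a distance of 0.44. The third was REG1A, now named eslec, at a distance of 0.46, with 4.81 and 7.31 CPM in tet2 m/m, against 45.1 and 48.4 CPM in tet2 wt/wt. The name eslec stood in the list of eosinophil and mast cell markers but was missed there, because lists were matched by the symbols of the table. Only 2 genes of that list were tested, and 0 were called in either direction by edgeR or DESeq2, with 1 lower and 0 higher at an unadjusted edgeR p under 0.05. Since 4 libraries hold little more than the genotype difference, many genes can look alike on this measure.

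The second copy, s100a10b (ENSDARG00000025254), had 10359 and 12914 reads in tet2 m/m replicates 1 and 2, against 5764 and 3852 reads in tet2 wt/wt replicates 1 and 2. The scaled levels were 1060 and 1166 CPM in tet2 m/m, against 587 and 508 CPM in tet2 wt/wt. Both mutant libraries were above both wild-type libraries, and the difference between the genotypes exceeded that between replicates. The log2 fold change was 1.02 ± 0.32 (SE), which passed the edgeR test narrowly (adjusted p = 0.0494) and ranked 310 by p-value among the 311 genes called higher. DESeq2 also called it (adjusted p = 0.00229). It was not called by edgeR without the replicate block (adjusted p = 0.0809), with the other scaling (0.0673, edgeR adjusted p) or by the bias-adjusted form of the fit (adjusted p = 0.147), nor without tet2 m/m replicate 1 or 2 or tet2 wt/wt replicate 2. Over the 12 other settings its log2 fold change was 0.91 to 1.105 and 4 called it, so the size of the difference held while the call did not.

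**Figure D2:**
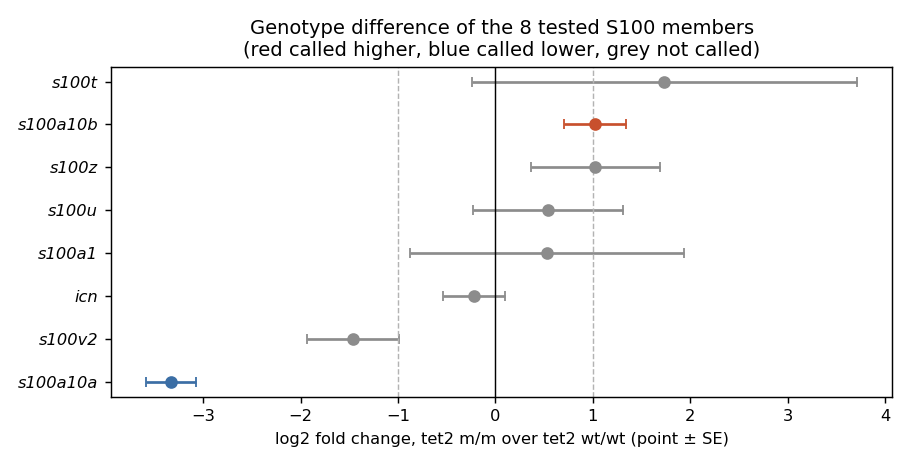
Log2 fold change of the 8 tested S100 members, tet2 m/m over tet2 wt/wt (x axis, points with bars of 1 SE, dashed lines at the fold threshold of 1). The point of s100a10a lies at -3.33 and that of s100a10b at 1.02, and the grey points of the other members were not called, with bars widest for s100t and s100a1, which had the fewest reads.

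The balance between both copies can be read within a library, where it does not depend on scaling. Reads of s100a10a made up 0.662% of the reads of both copies in tet2 m/m replicate 1 (95% Clopper-Pearson interval 0.515% to 0.837%) and 0.386% in tet2 m/m replicate 2 (0.286% to 0.508%). They made up 7.75% in tet2 wt/wt replicate 1 (7.10% to 8.44%) and 11.6% in tet2 wt/wt replicate 2 (10.7% to 12.6%). The intervals of the mutant and wild-type libraries did not overlap, and they cover counting error only. For each read of s100a10a there were 150 and 258 reads of s100a10b in tet2 m/m, against 11.9 and 7.60 in tet2 wt/wt. The mean log2 ratio of s100a10a to s100a10b reads was -7.62 ± 0.55 in tet2 m/m and -3.25 ± 0.46 in tet2 wt/wt (SD, n = 2 each). The difference was -4.37, and an exact two-sided permutation test gave p = 0.333, the smallest that 2 libraries against 2 can give. As s100a10b held most reads in both genotypes, the summed level of both copies was 1067 and 1171 CPM in tet2 m/m, against 637 and 575 CPM in tet2 wt/wt. The sources used here do not say how reads matching both copies were counted.

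**Figure D3:**
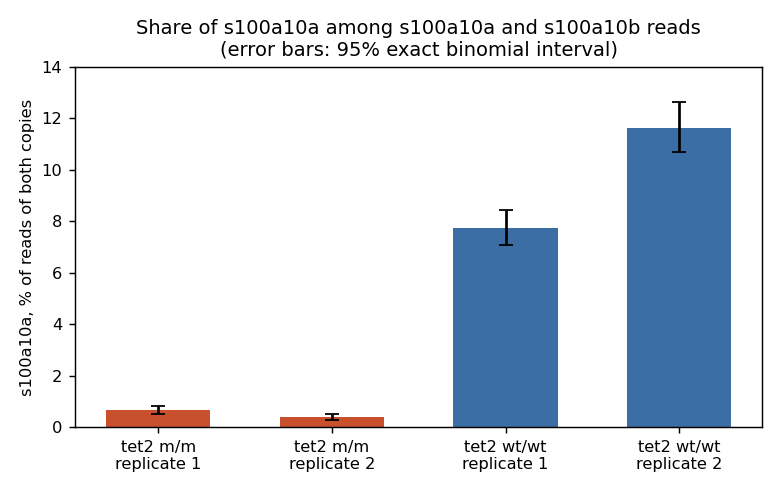
Reads of s100a10a as a percentage of the reads of s100a10a and s100a10b together (y axis) in each library, with error bars for the 95% exact binomial interval. The tet2 m/m bars stand at 0.662% and 0.386% and the tet2 wt/wt bars at 7.75% and 11.6%.

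Ictacalcin, encoded by icn (ENSDARG00000009978), is an S100 protein of fish first known from skin and other epithelia. It had 8907 and 6502 reads in tet2 m/m replicates 1 and 2, against 8506 and 6325 reads in tet2 wt/wt replicates 1 and 2. This came to 911 and 587 CPM in tet2 m/m, against 867 and 835 CPM in tet2 wt/wt. One mutant library was above and the other below both wild-type libraries, so the groups overlapped. The log2 fold change was -0.22 ± 0.32 (SE, edgeR adjusted p = 0.816), and without tet2 m/m replicate 2 it was 0.10. The keratin genes krt4 and krt5, which define skin epithelium, were low. There were 10 and 23 reads of krt4 in tet2 m/m replicates 1 and 2, against 9 and 9 reads in tet2 wt/wt. Reads of krt5 numbered 6 and 1 in tet2 m/m, against 20 and 0 in tet2 wt/wt replicates 1 and 2, so that 1 wild-type library stood apart. Other epithelial genes were highest in tet2 m/m replicate 1. Reads of EPCAM numbered 95 and 15 in tet2 m/m, against 29 and 12 in tet2 wt/wt, and those of cldnb 45 and 8, against 20 and 6. Epithelial markers thus did not all peak in the same library. Among kidney tubule markers, reads of cdh17 numbered 256 and 27 in tet2 m/m, against 43 and 28 in tet2 wt/wt. Most tested tubule markers were highest in tet2 m/m replicate 1, but aqp3a, slc20a1a and slc26a1 were highest in a tet2 wt/wt library. The part of tubule or other epithelial cells in the icn levels was not tested. The simple-epithelium keratin genes krt8 and KRT18 (2 of 3) were well detected, krt8 at 1438 ± 359 CPM in tet2 m/m and 1559 ± 62.9 CPM in tet2 wt/wt, and KRT18 (2 of 3) at 1207 ± 36.2 CPM in tet2 m/m and 1105 ± 28.8 CPM in tet2 wt/wt (SD, n = 2 each). Neither passed the test (edgeR adjusted p = 0.910 and 0.911). Of 15 tested epidermis and epithelium markers 1 was called lower, agr2, which encodes a protein of the secretory pathway, and 0 were called higher. At an unadjusted edgeR p under 0.05, 2 of these markers were higher and 1 was lower. DESeq2 and edgeR without the block each called 0 higher and 1 lower.

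The member s100v2 (ENSDARG00000070702), from a group of S100 genes found in fish, had 8 and 28 reads in tet2 m/m replicates 1 and 2, against 42 and 33 reads in tet2 wt/wt replicates 1 and 2. The levels were 0.818 and 2.53 CPM in tet2 m/m, against 4.28 and 4.35 CPM in tet2 wt/wt. Both mutant libraries were below both wild-type libraries, but the mutant libraries also lay apart from each other. The change on the log2 scale was -1.46 ± 0.47 (SE), which missed the threshold (edgeR adjusted p = 0.0616). It was -0.77 without tet2 m/m replicate 1, and -2.38 without tet2 m/m replicate 2, where it was called (edgeR adjusted p = 0.0364). It was called as well with no filter on low counts (edgeR adjusted p = 0.0198).

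The member s100z had 19 and 22 reads in tet2 m/m replicates 1 and 2, against 5 and 12 reads in tet2 wt/wt replicates 1 and 2. The log2 fold change was 1.02 ± 0.66 (SE, edgeR adjusted p = 0.480). The mutant libraries were above the wild-type ones, but the fold change was 0.28 without tet2 wt/wt replicate 1 and 1.91 without tet2 wt/wt replicate 2, on the log2 scale. The member s100u had 12 and 14 reads in tet2 m/m, against 9 and 6 reads in tet2 wt/wt, with a log2 fold change of 0.54 ± 0.77 (SE, edgeR adjusted p = 0.813). The ratio of tet2 m/m to tet2 wt/wt reads, scaled for library size, was 2.01 for s100z with a 95% counting interval of 1.12 to 3.78, which leaves out equal levels, and 1.45 for s100u with an interval of 0.738 to 2.94, which includes them. These intervals cover counting error only and not the spread between libraries, and neither gene passed the test.

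Reads of s100a1, the gene of a calcium sensor that in the mammalian heart regulates calcium release and uptake, numbered 4 and 3 in tet2 m/m and 1 and 3 in tet2 wt/wt. The scaled ratio of tet2 m/m to tet2 wt/wt reads was 1.46 with a 95% counting interval of 0.371 to 6.80. Reads of s100t numbered 1 and 4 in tet2 m/m and 0 and 1 in tet2 wt/wt, a ratio of 4.17 with an interval of 0.467 to 197. Both intervals include equal levels, the adjusted p of DESeq2 was not given for either, and neither gene was called (edgeR adjusted p = 0.911 for s100a1 and 0.748 for s100t). The log2 fold change of s100a1 was 0.53 ± 1.41 (SE), and -0.24 without tet2 wt/wt replicate 1. The paper shows S100A1, by its human symbol, as a downregulated gene of IL2-STAT5 signaling in tet2 m/m HSPCs. Its text does not say which zebrafish gene this was. Among the tested members, DESeq2 with the block called s100a10a lower (log2 fold change -3.34) and s100a10b higher, and no others. Which member the paper's symbol stands for was not tested.

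The other 5 members did not have enough reads to be tested. Of these, s100s and s100a11 had 0 reads in all 4 libraries; S100A11 is a partner of annexin A1 in mammalian epithelium. The genes icn2, s100v1 and s100b, the last a marker of glia in mammals, had at most 1 read in any library. All 5 thus lay below the level that a count of 0 allows, which limits how far they can be called absent.

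Over the family as a whole, icn and s100a10b held 99.4% of the S100 reads in each tet2 m/m library, against 96.3% and 94.8% in tet2 wt/wt replicates 1 and 2. These are shares of reads and do not rank the genes by transcript number. The share of s100a10b was 53.4% and 66.1% in tet2 m/m, against 38.9% and 35.9% in tet2 wt/wt, and that of s100a10a was 0.356% and 0.256% in tet2 m/m, against 3.27% and 4.72% in tet2 wt/wt. The summed level of all 13 members was 1873 ± 155 CPM in tet2 m/m and 1463 ± 65.1 CPM in tet2 wt/wt HSPCs (SD, n = 2 each), with no overlap between the genotypes. Of the 8 tested members 3 had both mutant libraries above and 2 both below the wild-type libraries, in a table where 44.8% of tested genes did not overlap.

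Annexins, membrane-binding proteins that S100 dimers hold together, were set beside the family. The transcript of anxa2a, a zebrafish counterpart of the S100A10 partner annexin A2, had 350 and 320 CPM in tet2 m/m replicates 1 and 2, against 179 and 109.5 CPM in tet2 wt/wt replicates 1 and 2. Both mutant libraries were above both wild-type ones. The transcript rose by a log2 fold change of 1.25 ± 0.25 (SE, edgeR adjusted p = 0.00164). It was not called by the bias-adjusted fit (adjusted p = 0.0551), with globin genes left out (edgeR adjusted p = 0.0570) or without tet2 wt/wt replicate 2 (log2 fold change 0.89, edgeR adjusted p = 0.0628). The other copy, anxa2b, had 0 reads in both tet2 wt/wt libraries and in 1 tet2 m/m library, and 1 read in the other, and was not tested.

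The annexin gene anxa3b, whose human counterpart is abundant in neutrophils, had 99.1 and 195.8 CPM in tet2 m/m, against 23.1 and 22.04 CPM in tet2 wt/wt. It rose by 2.62 ± 0.25 (SE) on the log2 scale (edgeR adjusted p = 4.26e-09) and was called under all 12 other settings. Of 11 annexins tested 2 were called higher and 0 lower, where 1.8% of all genes tested were called higher and 1.9% lower. DESeq2 called 2 higher and 0 lower, and 1.29% of all genes. At an unadjusted edgeR p under 0.05 there were 6 higher and 0 lower. Over the 11 annexins the median was 0.71 on the log2 scale, set against -0.01 over all genes tested, and the median stayed at 0.71 with anxa5a, which had 0 reads in tet2 wt/wt, set to its lower bound (3 reads over the group). Among the 11, 4 had under 60 reads in all. All 11 had libraries that did not overlap, 10 with tet2 m/m above and anxa11a with tet2 m/m below, in a table where 44.8% of tested genes did not overlap and 23.1% had tet2 m/m above. Some of these rest on few reads, such as ANXA9 with 6 and 6 in tet2 m/m, against 3 and 3 in tet2 wt/wt, and anxa5a with 3 and 4 in tet2 m/m, against 0 and 0 in tet2 wt/wt. The median of 14 neutrophil markers was 0.76 on the log2 scale, and 8 were higher and 1 lower at an unadjusted edgeR p under 0.05. Of the 14, 1 was called higher, mmp13a, the gene of a matrix-degrading protease, while 0 were called by DESeq2 or by edgeR without the block. Their summed level was 4395 to 8340 CPM in tet2 m/m, against 3416 to 5024 CPM in tet2 wt/wt libraries, and their part in the annexin values was not tested.

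**Figure D4:**
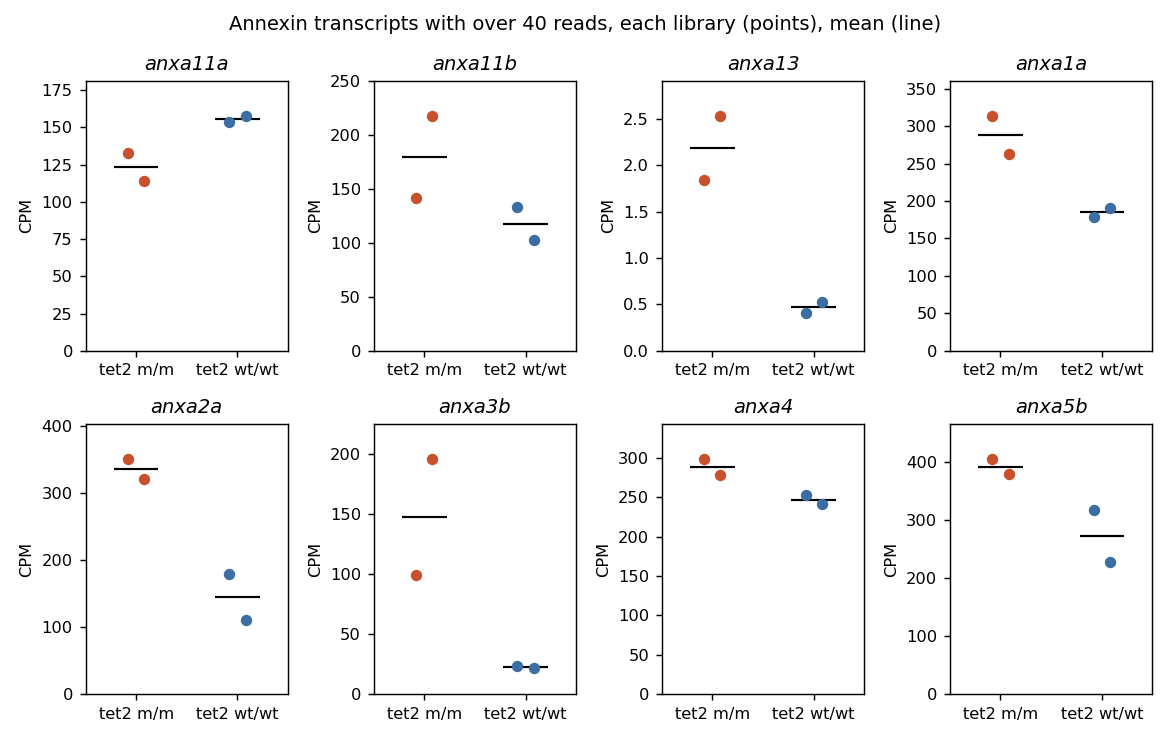
Level in CPM (y axis, linear, a scale of its own in each panel) of the 8 tested annexins with over 40 reads in tet2 m/m and tet2 wt/wt HSPCs, with a point for each library and a line at the mean of 2. The points of anxa2a lie at 350 and 320 CPM in tet2 m/m and at 179 and 109.5 CPM in tet2 wt/wt, those of anxa3b at 99.1 and 195.8 CPM in tet2 m/m and at 23.1 and 22.04 CPM in tet2 wt/wt, and anxa11a is the one panel with tet2 m/m below tet2 wt/wt.

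Other proteins that S100 dimers bind in mammals made up a list of 28 tested genes. Of these 0 were called higher and 1 lower, a share near the 3.71% of all genes tested, and DESeq2 called 0 in either direction. At an unadjusted edgeR p under 0.05 there were 5 higher and 1 lower. The list had a median of 0.27 on the log2 scale, and its summed level was 2138 to 2275 CPM in tet2 m/m, against 1524 to 2035 CPM in tet2 wt/wt libraries. The gene PPP5C, a protein phosphatase, passed the adjusted p but not the fold threshold (log2 fold change 0.87, edgeR adjusted p = 0.00900). The gene called was atp2a2a, a calcium pump of the endoplasmic reticulum and a target of S100A1 in mammals. It had 14 and 17 reads in tet2 m/m replicates 1 and 2, against 55 and 33 reads in tet2 wt/wt replicates 1 and 2. The levels were 1.48 ± 0.0726 CPM in tet2 m/m and 4.98 ± 0.884 CPM in tet2 wt/wt (SD, n = 2 each, edgeR adjusted p = 0.0126). The gene atp2a2a was not called without the replicate block (edgeR adjusted p = 0.0805) or without any 1 of the 4 libraries (log2 fold change -1.92 to -1.57). Another copy, atp2a2b, had 121 and 154 CPM in tet2 m/m, against 99.9 and 71.9 CPM in tet2 wt/wt. This copy leaned higher in tet2 m/m and was not called (log2 fold change 0.68, edgeR adjusted p = 0.0759).

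Proteins with EF-hands outside the S100 family, such as calmodulins, calpains and parvalbumins, had 51 tested genes. Of these 1 was called higher and 0 lower, where 3.71% of all genes tested were called. DESeq2 called 0 in either direction, and 12 were higher and 2 lower at an unadjusted edgeR p under 0.05. Their median was 0.16 on the log2 scale. The gene called was sri, which encodes sorcin, a calcium sensor. Its levels were 79.6 and 194.5 CPM in tet2 m/m replicates 1 and 2, against 67.0 and 44.3 CPM in tet2 wt/wt replicates 1 and 2. The mutant library replicate 2 was high and the other mutant library close to the wild-type ones. The log2 fold change was 1.19 ± 0.28 (SE, edgeR adjusted p = 0.00803), and it was 0.51 without that library (edgeR adjusted p = 0.483) and was not called by the robust fit (edgeR adjusted p = 0.588).

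**Figure D5:**
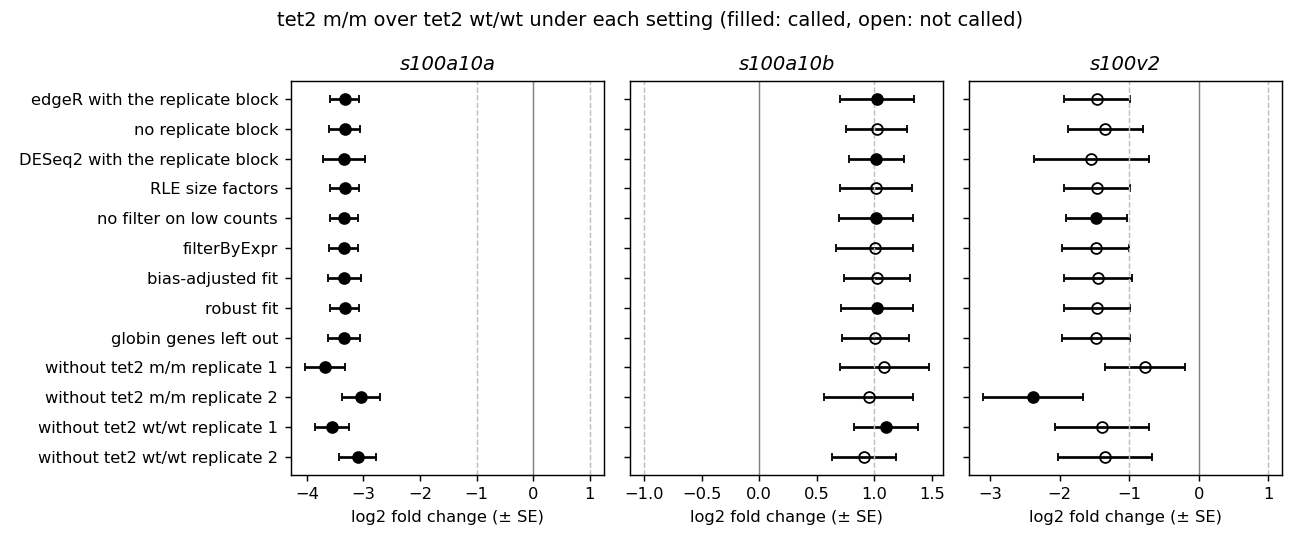
Log2 fold change of s100a10a, s100a10b and s100v2, tet2 m/m over tet2 wt/wt (x axis, bars of 1 SE), under edgeR with the replicate block and 12 other settings (rows), filled where the gene was called and open where it was not. All points of s100a10a are filled and lie between -3.68 and -3.04, those of s100a10b lie between 0.91 and 1.105 with 5 of 13 filled, and those of s100v2 spread between -2.38 and -0.77 with 2 of 13 filled.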

How the data were processed

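Polyadenylated RNA of sorted kidney marrow progenitors was sequenced from one end. By the submitters' processing notes and the paper's methods, the authors used FastQC 0.10.1 for quality, STAR 2.3.0 for alignment and bedtools 2.16.1 for counting reads per gene on the Ensembl annotation of Zv9. The deposited values are raw counts, with no normalization. For strand, multi-mapping reads and overlapping genes, the handling is not stated in these sources. Groups and replicate numbers came from the sample labels, and 0 columns had no sample.

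Of 32434 genes, 17242 had more than 5 reads over the 4 libraries and were tested. Library sizes were corrected with TMM factors and genes tested with edgeR 4.0.16 (R 4.3.3, limma 3.58.1, quasi-likelihood F-test in its older form). The replicate number entered as a block, and this term, the filter and the thresholds follow the study's methods, which used DESeq2. With the block, 1 residual degree of freedom is left per gene. Each SE is the size of the log2 fold change divided by the root of its F statistic. Alternatives were no block, DESeq2 1.42.0, other scaling (RLE), other filters, bias-adjusted and robust fits, globin genes left out, and each library left out (then without the block). The fits were also run on simulated counts with spreads taken from these data and no replicate effect. That run cannot show how the block performs on these libraries.

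Members, lists and tests were chosen with earlier results of these data known. Named were all S100 members, the called genes of each list (at most the 4 smallest adjusted p), anxa2a and anxa2b. For each called member the 3 genes with the nearest profile (pseudocount 0.5 CPM) were named as well. The skin and simple-epithelium keratins, EPCAM, cldnb, tal1, spi1, anxa5a, ANXA9, anxa11a, PPP5C and the neighbours of the S100A10 genes were named beside this rule. So were runx1, gfi1aa, mecom, cdh17, aqp3a, slc20a1a, slc26a1, atp2a2b, cebpa, egr1, hbaa1 and ba1. Some of these were named after their values were seen. Lists were matched by symbol and got no set test. The T and NK cell list thus held CD3EAP, now named polr1g. The stem and progenitor list held an entry myb, now named mybl2a, and separate entries for tal1 and TAL1. The gene cpa5 stood both in the neutrophil list and in that of eosinophils and mast cells. The latter also shared gata2a with the stem and progenitor list. The macrophage list held several copies of mfap4; of its 23 tested genes 3 were called higher and 5 lower (DESeq2 2 and 2). Values of other lists are in the closing section. Sequences were not used here.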

Additional observations from a re-analysis of the deposited data

How the results depend on the processing

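The fall of s100a10a was called under all 12 alternatives, while the number of S100 members called was 2 with the replicate block and 1 without the replicate block, with RLE size factors, with edgeR's own expression filter, with the bias-adjusted fit and with globin genes left out. It was 3 with no filter on low counts, where s100v2 was called as well. It was 1 to 2 with a library left out (1 without tet2 m/m replicate 1 and without tet2 wt/wt replicate 2). Over all genes 639 were called, against 258 without the replicate block, 223 by DESeq2, 197 by the bias-adjusted fit, 233 with globin genes left out and 412 to 940 with a library left out. Without tet2 wt/wt replicate 2 the count was 412. The cause of these differences was not tested. All 197 genes of the bias-adjusted fit, 256 of those called without the block and 220 of those called by DESeq2 were among the 639. Annexins called numbered 2, and 1 with the bias-adjusted fit, with globin genes left out and without tet2 wt/wt replicate 2 (1 to 2 with a library left out). Other S100 partners called numbered 1, and 0 without the replicate block, by DESeq2, by the bias-adjusted fit and with globin genes left out. With a library left out there were 0 to 2, with 2 without tet2 m/m replicate 1 and 0 without any other. EF-hand genes called numbered 1, and 0 in those same 4 settings and in the robust fit. With a library left out there were 0 to 2, with 2 without tet2 m/m replicate 1 or tet2 wt/wt replicate 1 and 0 without tet2 m/m replicate 2. The log2 fold change of icn ranged from -0.54 to 0.10 and that of s100a1 from -0.24 to 1.61 with a library left out.

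The labels do not say what a replicate number stands for. The deviations of same-numbered libraries from their group means correlated at 0.07 across genes, and with 2 pairs this does not settle whether the numbers pair the samples; the replicate block follows the study's methods. The summed S100 level kept within 1 SD under both other scalings. Of the 8 tested members 5 had under 100 reads in each library. Counting error alone spans equal levels for s100u, s100a1 and s100t, but not for s100v2 and s100z. The stricter filter left s100a1 and s100t out of the test, as did 3 of the 4 settings without a library for s100t.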

Other observations

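In the gene order of the GRCz12tu assembly, s100a10b, s100w, icn and icn2 are direct neighbours, while s100a10a lies on another chromosome. Both have a copy of trim46 nearby on one side and a copy of snx27 on the other. Of the 3 members of this cluster in the table, s100a10b was called higher, icn was not called and icn2 had 1 read in all and was not tested. The gene s100w was not analysed here. Among 5 protein-coding genes on either side of s100a10a, 5 other than S100 genes were tested, 0 were called by edgeR with or without the block or by DESeq2, and 1 had an unadjusted edgeR p under 0.05. Around s100a10b 4 were tested, 0 were called by these fits and 1 had an unadjusted p under 0.05. That gene, KRTCAP2, next to s100a10b, encodes a subunit of the enzyme complex that attaches sugar chains to proteins. It had 81.7 and 111 CPM in tet2 m/m, against 63.3 and 43.4 CPM in tet2 wt/wt, with a log2 fold change of 0.86 ± 0.23 (SE, edgeR adjusted p = 0.0177), below the fold threshold. The genes snx27a and snx27b had log2 fold changes of -0.55 (edgeR adjusted p = 0.315) and -0.08 (edgeR adjusted p = 0.956).

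The 3 genes with profiles nearest to s100a10b were mfap4 (distance 0.043), RAD21 (3 of 3), a cohesin subunit gene (0.058), and capn5a, a calpain gene (0.062). The level of mfap4 was 25.6 and 30.0 CPM in tet2 m/m, against 14.6 and 13.1 CPM in tet2 wt/wt. All 3 were called higher by edgeR with the block, and their direction followed from being picked for likeness to s100a10b. The copy mfap4 went the other way from MFAP4 (13 of 13), which was picked as the gene nearest to s100a10a.

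Among the other cell type lists, those of T and NK cells, eosinophils and mast cells, kidney tubule, stroma with endothelium, and muscle had 0 genes called by edgeR with or without the block or by DESeq2. At an unadjusted edgeR p under 0.05 these lists had 1, 0, 2, 0 and 0 genes higher and 1, 1, 2, 3 and 1 lower, in that order. The counts for eosinophils and mast cells leave out eslec, missed by symbol, which edgeR with the block called lower (log2 fold change -2.96). The kidney tubule list had a median of 1.30 on the log2 scale, with 6 of its 11 tested genes under 60 reads in all. Of 10 thrombocyte markers f5, a clotting factor gene, was called higher and itgb3a, an integrin gene, lower. The call of f5 was also made by DESeq2 and by edgeR without the block, and that of itgb3a by neither. Of 14 erythroid markers 1 was called lower, the carbonic anhydrase gene cahz, and DESeq2 called 2 lower. At an unadjusted edgeR p under 0.05, 7 erythroid markers were lower and 0 higher, and their median was -0.73 on the log2 scale. Both tet2 m/m libraries were below both tet2 wt/wt libraries for 11 of the 14. Of 16 stem and progenitor markers 1 was called lower, the transcription factor gene gfi1ab, and DESeq2 also called 1 lower. At an unadjusted edgeR p under 0.05, 1 was higher and 3 were lower.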
